A study of Mus musculus with 8 samples.

Results

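The translation initiation and elongation factors are described here in mouse liver, across AP20187 treatment and Atf4 genotype. The set held every gene on the array whose symbol begins with Eif or Eef and that a probe set named alone. The eIF2 kinases (Eif2ak genes), Eif4ebp1 and Eif2s3y were left out by the rule, which used names and no measured value. It found 43 genes with 60 probe sets, out of 8251 genes that probe sets named alone. By complex these were 3 genes of eIF1, 8 of eIF2 and its exchange factor eIF2B, 10 of eIF3, 10 of eIF4, 4 of eIF5 with Eif6 placed beside it, and 8 of the elongation factors (eEF). Genes were placed by symbol. Eif2a and Eif2d, which are not subunits of eIF2 or eIF2B, were thus placed with them. Eef2k and Eef1akmt1, enzymes that modify elongation factors, were placed with eEF. RefSeq lists 66 protein-coding mouse genes under the same rule. Among those not analysed here are Eif2s1, the alpha subunit of eIF2 that the eIF2 kinases phosphorylate, and Eif2b3.

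Initiation factors bring the small ribosomal subunit, the initiator tRNA and the mRNA together. eIF2 carries the initiator tRNA in a complex with GTP, and eIF2B recharges eIF2 with GTP after each round. eIF3 is the large scaffold on the small subunit, and the eIF4 group binds the mRNA cap and unwinds the leader, while eIF1 and eIF5 act in start codon choice and subunit joining. Elongation factors then deliver aminoacyl-tRNA (eEF1) and move the ribosome along (eEF2). PERK is one of the kinases that phosphorylate eIF2. Phosphorylated eIF2 holds eIF2B inactive, so that general initiation slows while the mRNA of the transcription factor ATF4 is translated better. This chain of events is called the integrated stress response, and in the liver it follows stress in the endoplasmic reticulum or shortage of amino acids.

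All 8 arrays came from siblings that carried the low expressing transgene number 58, in which the promoter of Ttr, a liver secretory gene, drives Fv2E-PERK. This protein joins the PERK kinase to a domain that the drug AP20187 dimerizes, so that the drug switches the kinase on. The mice had a mixed FvB/n and Swiss Webster background and were either Atf4+/+ or Atf4-/-. There were 2 arrays in each of 4 groups: untreated Atf4+/+, untreated Atf4-/-, AP20187-treated Atf4+/+ and AP20187-treated Atf4-/-. The labels of the arrays call the controls untreated, and the series title says that they were mock-injected. Dose, duration, age and sex were not given in the sources used here, nor was it said whether the 2 arrays of a group were separate mice, so that the p-values measure the spread between these samples, which may be technical. All groups carried the transgene, and no array of mice without it was analysed here.

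The values are the deposited linear ratios, each of a probe set to its own median over the 8 arrays for most probe sets, so that 1 stands for that median and levels of different genes cannot be compared. Fits were made on log2(ratio + 0.1) with limma, and adjusted p-values are by Benjamini and Hochberg over 12422 probe sets. A log2 difference on this scale understates the difference of probe sets with low ratios. Depth has no counterpart here. The number of arrays limits the precision, and the median standard error of a log2 difference was 0.32 for 2 against 2 arrays and 0.23 for the mean of both genotypes.

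Atf4 itself went against the label of 2 untreated arrays. Its ratio was 2.36 and 0.30 in the arrays labelled untreated Atf4+/+, 0.29 and 1.67 in those labelled untreated Atf4-/-, 4.17 and 5.75 in those labelled treated Atf4+/+ and 0.25 and 0.33 in those labelled treated Atf4-/-. Replicate 2 of both untreated groups thus read like the other genotype, although whether the probe set lies in the deleted part of the gene is not stated in the sources used here. For untreated Atf4-/- replicate 1 the source name says Atf4-/- and the description says Atf4+/+, and the source name was used. Untreated Atf4+/+ replicate 1 was grouped by its description, and all other arrays by their source names. Below, Atf4+/+ and Atf4-/- stand for the labels of the arrays. The treatment labels met no such conflict in Ddit3 and Trib3. Asns and Eif2ak3 were also listed for this check and are not described here. Ddit3, which encodes the stress-induced factor CHOP, read at most 0.30 without AP20187 and at least 1.70 with it. Trib3, an ATF4 and CHOP target, read at most 0.27 without it and at least 1.73 with it. In treated Atf4+/+ replicate 2 the 5′ probe set of Actb, which encodes beta-actin, was low against the 3′ one, by -0.64 on the log2 scale against -0.19 or more in the other 7 arrays, while the same measure of Gapdh lay between -0.06 and 0.13 in all 8.

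Under AP20187, the ratios of 14 of the 35 initiation factor genes (40%) were higher in every treated array than in any untreated one. This held for 4.75% of all genes, and 0 of the 8 elongation factor genes is near that share. With 1 probe set for each gene, the largest log2 difference was 0.97, for the scaffold gene Eif4g3. None of the 43 genes passed the test. All 4 treated arrays lay above all 4 untreated arrays for 14 of the 43 genes (32.6%), against 4.75% of all genes taken with 1 probe set each. These were Eif1a, Eif2a, Eif2b2, Eif2b4, Eif2s2, Eif3a, Eif3c, Eif3d, Eif3j1, Eif4a1, Eif4a2, Eif4g3, Eif5 and Eif6. All 4 treated arrays lay below for 1 gene, Eif4ebp2, an inhibitor of cap binding, against 4.19% of all genes. This count compares treatments only and makes no use of the Atf4 labels. It was 16 of 43 without the 2 untreated arrays whose Atf4 went against the label, when 9.2% of all genes met it, and 14 without treated Atf4+/+ replicate 2, when 6.3% did. Where treated and untreated arrays do not overlap, a ratio to the median of the 8 has to lie below 1 in one treatment and above 1 in the other, so that the side of 1 adds nothing to the count.

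For the mean of the effects in both genotypes, limma called 5 of 12422 probe sets (0.0403%) at an adjusted p under 0.05 and none of them belonged to a factor gene. At an unadjusted p under 0.05, 12 of the 43 genes were higher (27.9%), against 6.7% of all genes, and 1 was lower, against 5.18%. Without the 2 untreated arrays whose Atf4 went against the label, 6 of the 43 genes had such a p in either direction in place of 13, when 8.23% of all genes did in place of 11.9%. The lowest adjusted p of a factor gene in limma was 0.233. The median log2 difference of the 43 genes was 0.13, beside -0.04 over all probe sets tested. Of the 43, 29 were above 0 (67.4%), against 45.3% of all genes. Between the arrays, the 43 genes had a median ratio of 0.96, 0.95, 0.91 and 0.83 without and of 1.04, 1.09, 1.04 and 1.06 with AP20187, while the median over all genes lay between 0.96 and 1.01. The ranges of the treated and the untreated arrays thus did not overlap for the median of the set. In bulk liver, fewer cells of a type and less RNA per cell cannot be told apart.

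**Figure D1:**
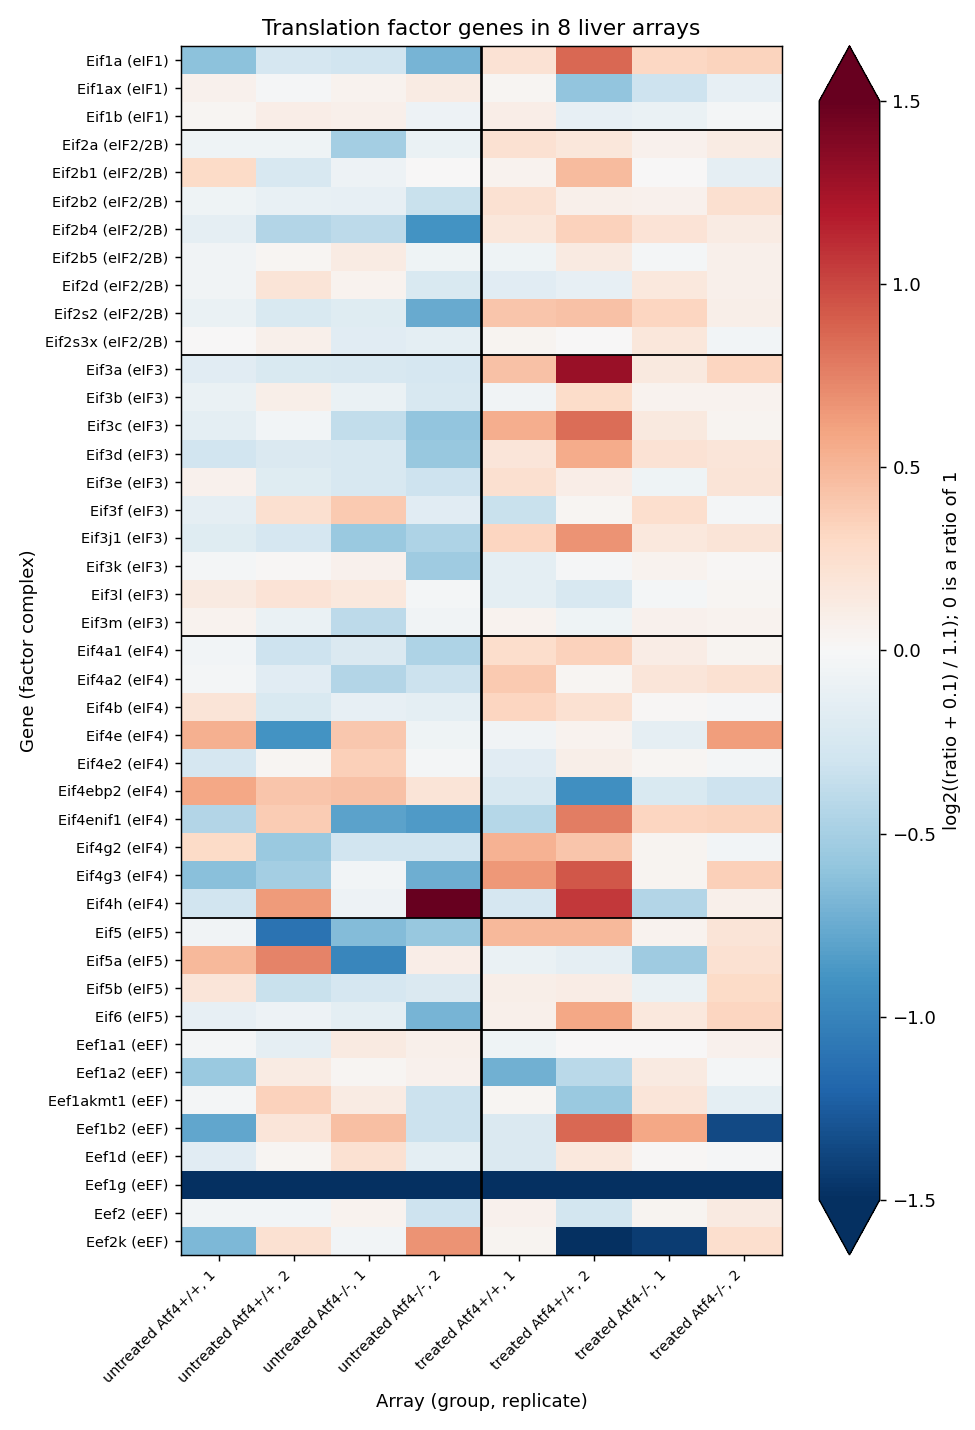
Ratio of each of the 43 translation factor genes (rows, by complex) in each of the 8 arrays (columns), as log2((ratio + 0.1) / 1.1), so that white is a ratio of 1, red is higher and blue lower. The thick line parts 4 untreated from 4 treated arrays. Blue on the left and red on the right mark genes such as Eif3c, Eif3j1 and Eif2b4, Eif4ebp2 shows the opposite, and Eef1g is dark throughout because its ratios lay between 0.05 and 0.25.

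By complex, beside the 4.75% of all genes, the count of genes higher in all treated arrays was 1 of 3 for eIF1, 4 of 8 for the group of eIF2 and eIF2B, 4 of 10 for eIF3, 3 of 10 for eIF4, 2 of 4 for eIF5 with Eif6, and 0 of 8 for eEF. Within the group of eIF2 and eIF2B it was 1 of 2 eIF2 subunits and 2 of 4 eIF2B subunits, and the remaining gene was Eif2a. With so few genes in each, and at that share of all genes, 0 of 8 is near the background, and the counts of the complexes were not tested against each other. Their median log2 differences, in the same order, were -0.07, 0.21, 0.23, 0.33, 0.40 and -0.08. Over the 35 initiation factor genes the median was 0.25, with 26 above 0 (74.3%), against 45.3% of all genes. Over the 8 eEF genes it was -0.08, with 3 above 0 (37.5%), near that share. Without the modifying enzymes Eef2k and Eef1akmt1, the 6 genes of eEF1 and eEF2 had a median of -0.01, with 3 above 0. The difference between initiation and elongation factors was not tested.

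**Figure D2:**
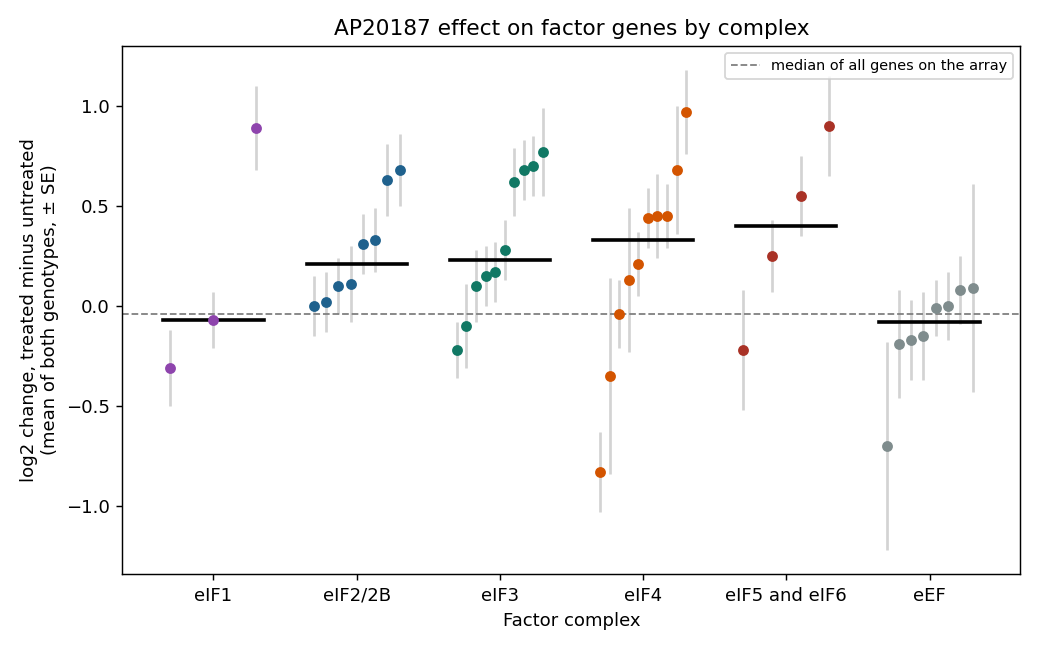
Log2 difference between treated and untreated arrays, as the mean of both genotypes, for each factor gene (points, sorted within each complex) with its standard error from limma (bars, 4 against 4 arrays). Black lines are the medians of the complexes, from -0.08 for eEF to 0.40 for eIF5 and eIF6, and the dashed line is the median of all genes, at -0.04.

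Promoters were looked at because ATF4 binds a known element and because 14 genes stood higher together. RefSeq promoter windows of build GRCm38.p6, from 250 bases before to 50 after the start, were at hand for 36 of the 43 genes. The core of the C/EBP-ATF element that ATF4 binds, TGATGNAA on either strand, was found in 2 of the 36 (5.56%), in Eef2k and Eif2s3x, against 3% of the genes of the array. Both are shown because they are the only 2 members with a match, the core in capitals and read on the opposite strand. Neither was among the 14 genes, of which 12 had a window and 0 a match. The Eef2k stretch is chr7:120851094-120851123 on the plus strand and the Eif2s3x stretch chrX:94212729-94212758 on the minus strand. That of Eef2k lies inside the annotated span of the gene, before an internal start.
Eef2k: ctttctgcttgTTTCATCAagctcagcttg
Eif2s3x: ttcgccatcatTTTCATCAggtctatgccg

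A start of C followed by 4 pyrimidines, as in the 5′ terminal oligopyrimidine mRNAs that mTOR signalling controls, was seen in 2 of 36 (5.56%), against 2.95% of the genes of the array. The core of ETS family sites, CCGGAAG on either strand, was chosen after the sequences had been seen. It was in at least 1 window of 13 of the 36 genes (36.1%), against 17.1% of the genes of the array. The median GC content was 62.7% in the set and 59.7% over the array. Among genes higher in all treated arrays the ETS core was in 33.3% of those with a window, and among genes whose treated and untreated arrays overlapped in 34.8%. Eif4ebp2, the gene lower in all treated arrays, also had it. Eif3c and Eif3d, both among the 14, are printed as examples for the 150 bases before the start, with the ETS core in capitals, read on the opposite strand. Eif3c holds it at 2 places and Eif3d at 1. The stretches are chr7:126566367-126566516 and chr15:77970825-77970974, both on the minus strand. A match is a description of letters and not a site.
Eif3c: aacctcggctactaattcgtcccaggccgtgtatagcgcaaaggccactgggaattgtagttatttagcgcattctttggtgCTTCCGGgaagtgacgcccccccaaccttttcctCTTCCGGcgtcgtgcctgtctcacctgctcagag
Eif3d: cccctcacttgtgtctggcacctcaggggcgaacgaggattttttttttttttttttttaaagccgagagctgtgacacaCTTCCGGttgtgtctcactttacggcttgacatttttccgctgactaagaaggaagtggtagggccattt

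Of eIF2 itself, the genes of the beta and gamma subunits were measured, and neither passed the test. Eif2s2, which encodes the beta subunit, read 0.93 and 0.84 in untreated Atf4+/+, 0.87 and 0.55 in untreated Atf4-/-, 1.37 and 1.39 in treated Atf4+/+ and 1.27 and 1.07 in treated Atf4-/- arrays. All 4 treated arrays were above all 4 untreated ones, and the log2 difference was 0.63 ± 0.18 (SE, limma adjusted p = 0.322). A second Eif2s2 probe set overlapped. Eif2s3x, the X-linked gene of the gamma subunit whose promoter stretch is given above, read 1, 1.06, 0.88 and 0.89 untreated and 1.03, 1, 1.14 and 0.97 treated, in the same order of groups. Its groups overlapped, with a log2 difference of 0.10 ± 0.14 and a 95% interval from -0.24 to 0.44. The difference between the subunits was not tested.

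Of the 4 measured subunits of eIF2B, the target of phosphorylated eIF2, beta and delta did not overlap. Eif2b4, the delta subunit, read 0.90, 0.71, 0.74 and 0.49 untreated and 1.14, 1.30, 1.17 and 1.1 treated. Its log2 difference was 0.68 ± 0.18 (limma adjusted p = 0.304), and the lowest of its 8 values was untreated Atf4-/- replicate 2. Eif2b2, the beta subunit, read 0.95, 0.92, 0.91 and 0.77 untreated and 1.19, 1.06, 1.05 and 1.20 treated, a difference of 0.31 ± 0.15 (limma adjusted p = 0.488). Eif2b1, the alpha subunit, overlapped, at 1.24, 0.83, 0.94 and 1 untreated and 1.04, 1.43, 1 and 0.90 treated. Eif2b5, the catalytic epsilon subunit, read 0.96, 1.02, 1.1 and 0.95 untreated and 0.95, 1.11, 0.98 and 1.06 treated in the probe set used. A second probe set of it did not overlap. Eif2a, which encodes a factor of its own and not a subunit of eIF2, read 0.95, 0.95, 0.67 and 0.93 untreated and 1.19, 1.14, 1.05 and 1.1 treated, a difference of 0.33 ± 0.16. Eif2d, a factor for non-canonical initiation and recycling, overlapped over the 8 arrays, at 0.96, 1.16, 1.04 and 0.84 untreated and 0.88, 0.91, 1.13 and 1.06 treated.

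In eIF3, 4 of 10 measured subunits did not overlap and none was lower in all treated arrays. Eif3c, a core subunit whose promoter is printed above, read 0.89 and 0.97 in untreated Atf4+/+, 0.75 and 0.63 in untreated Atf4-/-, 1.51 and 1.86 in treated Atf4+/+ and 1.12 and 1.03 in treated Atf4-/- arrays. The treated mean was 1.38 ± 0.382 (SD, n = 4) and the untreated mean 0.81 ± 0.151, a log2 difference of 0.68 ± 0.15 (SE, limma adjusted p = 0.245). Treated and untreated arrays were also apart within each genotype label, and within each treatment the arrays labelled Atf4-/- lay below those labelled Atf4+/+. Eif3a, the largest core subunit, read 0.88, 0.84, 0.83 and 0.82 untreated, the tightest untreated values of the 4 genes. Treated it read 1.39, 2.59, 1.12 and 1.27, so that 1 array, treated Atf4+/+ replicate 2, was far above the others. Its log2 difference was 0.77 ± 0.22 (limma adjusted p = 0.315), and 0.56 without that array.

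Eif3j1, a loosely bound subunit that acts in mRNA entry and ribosome recycling, read 0.87, 0.82, 0.65 and 0.70 untreated and 1.27, 1.65, 1.13 and 1.16 treated. Its log2 difference of 0.70 ± 0.15 (limma adjusted p = 0.236) was 0.71 in Atf4+/+ and 0.68 in Atf4-/-. Eif3d, a subunit that can bind the cap of some mRNAs, read 0.80, 0.85, 0.83 and 0.64 untreated and 1.15, 1.52, 1.18 and 1.15 treated, a difference of 0.62 ± 0.17 (limma adjusted p = 0.307). The remaining eIF3 genes (Eif3b, Eif3e, Eif3f, Eif3k, Eif3l and Eif3m) overlapped, with log2 differences from -0.22 for Eif3l to 0.28 for Eif3e. Eif3l read 1.11, 1.17, 1.13 and 0.98 untreated and 0.89, 0.83, 0.98 and 1.02 treated, so that its Atf4+/+ arrays were lower with AP20187 and its Atf4-/- arrays were not apart. A second Eif3l probe set read higher with AP20187 (1.11 ± 0.51), and the mean over both probe sets was 0.45.

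In the eIF4 group, the scaffold gene Eif4g3 and the helicase genes Eif4a1 and Eif4a2 had higher ratios in all treated arrays, and the inhibitor Eif4ebp2 had lower ones. The other measured gene of the scaffold family, Eif4g2, overlapped, as did Eif4e, the cap-binding protein. Eif4g3, an eIF4G scaffold that joins cap-binding protein, helicase and eIF3, read 0.61 and 0.67 in untreated Atf4+/+, 0.97 and 0.56 in untreated Atf4-/-, 1.62 and 1.99 in treated Atf4+/+ and 1.03 and 1.31 in treated Atf4-/- arrays. The treated mean was 1.49 ± 0.413 (SD, n = 4) and the untreated mean 0.703 ± 0.184. The log2 difference of 0.97 ± 0.21 (SE, limma adjusted p = 0.233) was the highest of the set with 1 probe set for each gene. The lowest treated and the highest untreated value, 1.03 and 0.97, were both in Atf4-/- arrays. Eif4a1, the main helicase of the cap complex, read 0.97, 0.79, 0.85 and 0.70 untreated and 1.22, 1.30, 1.09 and 1.03 treated (difference 0.44 ± 0.15). Its close relative Eif4a2 read 0.98, 0.88, 0.71 and 0.78 untreated and 1.34, 1.02, 1.15 and 1.19 treated (difference 0.45 ± 0.16). Whether the probe sets of these near copies share signal was not tested, and that of Eif4a1 has the _r suffix by which Affymetrix marks relaxed design rules.

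Eif4ebp2, which binds eIF4E and keeps it from eIF4G, read 1.55 and 1.37 in untreated Atf4+/+, 1.39 and 1.16 in untreated Atf4-/-, 0.83 and 0.48 in treated Atf4+/+ and 0.84 and 0.79 in treated Atf4-/- arrays. The treated mean was 0.735 ± 0.171 (SD, n = 4) against 1.37 ± 0.16, with a log2 difference of -0.83 ± 0.20 (limma adjusted p = 0.265). Eif4e, the cap-binding protein, read 1.49, 0.49, 1.36 and 0.95 untreated and 0.96, 1.04, 0.90 and 1.60 treated. These values overlapped and were widely spread, and the 95% interval of the log2 difference ran from -0.74 to 1. Eif4enif1, which encodes the eIF4E transporter 4E-T, read 0.71, 1.33, 0.53 and 0.51 untreated and 0.72, 1.77, 1.28 and 1.29 treated. Only its Atf4-/- arrays were apart. Eif4h, an accessory protein of the helicase, read 0.80, 1.61, 0.94 and 3.14 untreated and 0.82, 2.2, 0.71 and 1.06 treated, and its log2 difference had a standard error of 0.49. Eif4b, Eif4e2 and Eif4g2 overlapped, with differences of 0.21, -0.04 and 0.45.

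Eif1a, a member of the eIF1A family that helps scanning, read 0.62 and 0.82 in untreated Atf4+/+, 0.80 and 0.58 in untreated Atf4-/-, 1.18 and 1.90 in treated Atf4+/+ and 1.26 and 1.29 in treated Atf4-/- arrays. The log2 difference was 0.89 ± 0.21 (SE, limma adjusted p = 0.265), with a treated mean of 1.41 ± 0.332 (SD, n = 4) against 0.705 ± 0.123. Its X-linked relative Eif1ax read 1.05, 0.99, 1.04 and 1.1 untreated and 1.02, 0.63, 0.79 and 0.91 treated, a difference of -0.31 ± 0.19 in the other direction with overlap. Eif1b ranged from 0.94 to 1.08 untreated and from 0.91 to 1.08 treated. Eif5, which makes eIF2 hydrolyse its GTP at the start codon, read 0.96, 0.41, 0.60 and 0.64 untreated and 1.44, 1.44, 1.04 and 1.16 treated, with a difference of 0.90 ± 0.25 (limma adjusted p = 0.309). Eif6, which keeps the large ribosomal subunit from joining too early, read 0.91, 0.94, 0.89 and 0.58 untreated and 1.06, 1.54, 1.13 and 1.27 treated (0.55 ± 0.20). Eif5b, the factor of subunit joining, overlapped with a difference of 0.25 ± 0.18. Eif5a, the hypusine-bearing factor, read 1.44, 1.74, 0.46 and 1.08 untreated and 0.93, 0.90, 0.66 and 1.19 treated, with overlap.

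**Figure D3:**
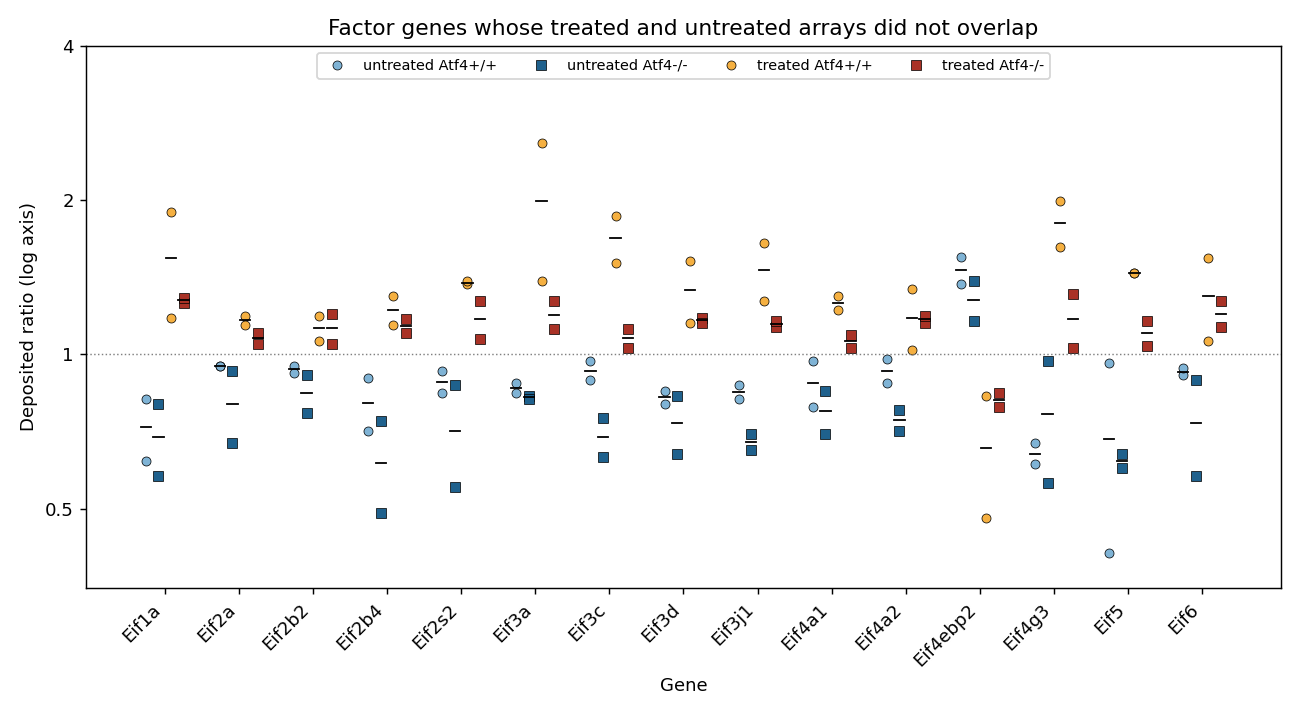
Deposited ratio (log axis) of the 15 factor genes whose 4 treated and 4 untreated arrays did not overlap, 1 point for each array by group, with a short line at the group mean and a dotted line at 1. In 14 genes the treated arrays are above the untreated ones and in Eif4ebp2 below, and treated Atf4+/+ replicate 2 of Eif3a is the highest point, at 2.59.

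The 8 elongation factor genes showed none apart by treatment, near the 4.75% of all genes that were higher and 4.19% that were lower. Eef1a1, which carries aminoacyl-tRNA to the ribosome, read 0.98, 0.90, 1.11 and 1.06 untreated and 0.95, 1, 1 and 1.05 treated. Its log2 difference was -0.01 ± 0.14, with a 95% interval from -0.34 to 0.32. Eef2, the translocase, read 0.97, 0.97, 1.04 and 0.79 untreated and 1.05, 0.81, 1.03 and 1.11 treated, a difference of 0.08 ± 0.17 with an interval from -0.32 to 0.48. The upper ends of both intervals lie above the 0.31 of Eif2b2. Eef1a2, a copy of eEF1A known from muscle and nerve, read 0.65, 1.1, 1.02 and 1.05 untreated and 0.57, 0.73, 1.11 and 0.98 treated. Eef2k, the kinase that inactivates eEF2 and 1 of the pair of promoters with a C/EBP-ATF core, ranged from 0.59 to 1.65 untreated and from 0.29 to 1.21 treated (difference -0.70 ± 0.52). Eef1b2 was as widely spread, from 0.54 to 1.40 and from 0.33 to 1.90. Eef1g, a subunit of the exchange factor of eEF1A, was the only gene whose probe set in use had a median ratio below 0.99, at 0.16. It read 0.09, 0.21, 0.13 and 0.25 untreated and 0.17, 0.18, 0.15 and 0.05 treated, close to the added 0.1. Eef1d and Eef1akmt1, a methyltransferase of eEF1A, had differences of 0.00 ± 0.17 and -0.15 ± 0.22.

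For 14 of the 43 genes more than 1 probe set was measured. The 3 probe sets of Eif4ebp2 were all lower in all treated arrays, with log2 differences of -0.83, -0.95 and -1.31. In the last of them treated Atf4+/+ replicate 2 read 0.10 and the other treated arrays from 0.79 to 0.83. Both probe sets of Eif1a were higher in all treated arrays, by 0.89 and 0.81. The second probe set of Eif2b5 was higher in all treated arrays, at 0.95, 0.85, 0.89 and 0.63 untreated and 1.05, 1.15, 1.15 and 1.23 treated (0.43 ± 0.16, limma adjusted p = 0.418), while the one used here was not apart (0.02 ± 0.15). A second probe set of Eif2s2 was too spread to compare, from 0.27 to 2.23 untreated and from 0.73 to 2.79 treated. Over all 60 probe sets 16 were higher in all treated arrays (26.7%) against 4.19% of all probe sets, and 3 were lower, all of Eif4ebp2, against 3.78%. Of the 29 genes with a single probe set, where no choice was made, 12 were higher in all treated arrays (41.4%), against 4.79% of all genes with a single probe set.

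**Figure D4:**
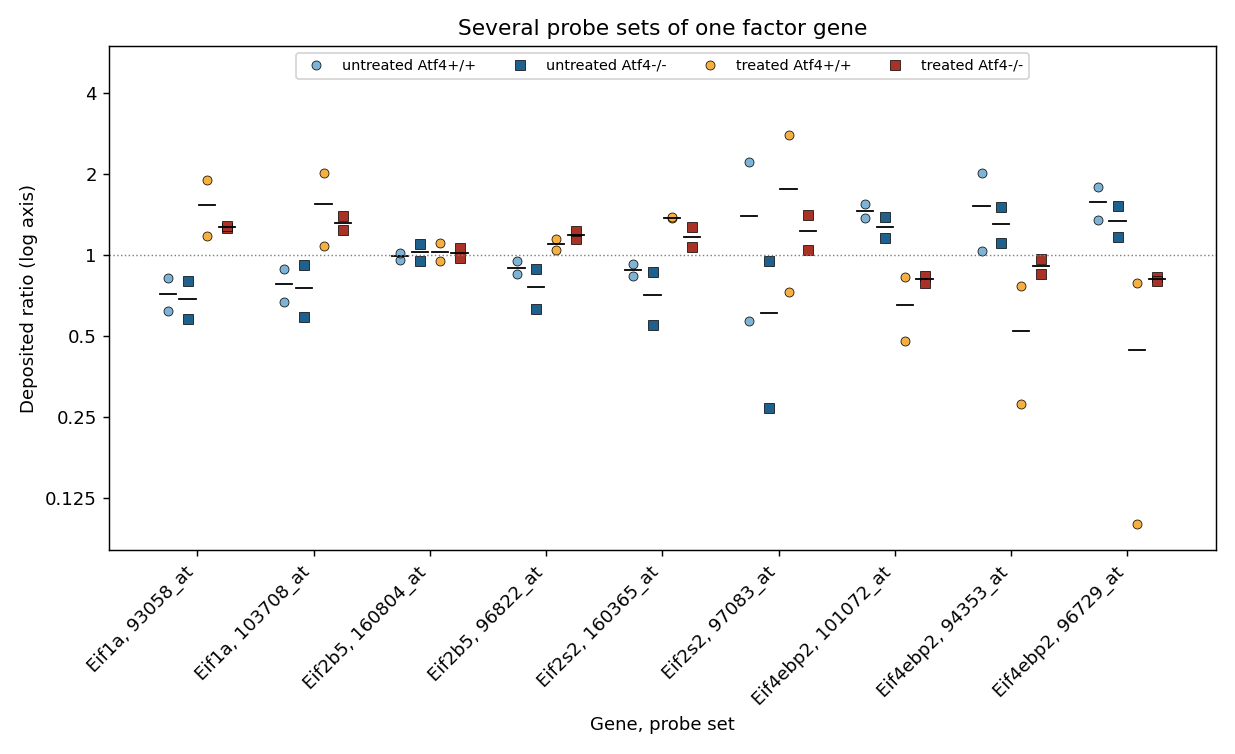
Deposited ratio (log axis) in each array for all probe sets of Eif1a, Eif2b5, Eif2s2 and Eif4ebp2, with points coloured by group and a short line at the group mean. Both Eif1a and all 3 Eif4ebp2 probe sets part treated from untreated arrays, whereas for Eif2b5 and Eif2s2 only 1 probe set of each does.

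The AP20187 effect was also taken by genotype label, and these 2 comparisons share no arrays. In Atf4+/+ limma called 1 of 12422 probe sets (0.00805%), in Atf4-/- 0 (0%), and none was a factor gene. At an unadjusted p under 0.05, 7 factor genes were higher in Atf4+/+ (4.98% of all genes) and 1 was lower (4.4%), and 8 were higher in Atf4-/- (4.41%) and 0 lower (2.85%). The median of the 43 genes was 0.18 in Atf4+/+, beside -0.06 over all probe sets, and 0.23 in Atf4-/-, beside -0.02. Genes with a log2 difference above 0 in both numbered 22 of 43, against 26.2% of all genes. Across the 43 genes Pearson's r between the 2 differences was 0.56, and 0.23 across all genes. This is a description over genes measured on the same arrays. Without the 2 untreated arrays whose Atf4 ratio went against the label, 4 genes in Atf4+/+ had an unadjusted p under 0.05, when 6.36% of all genes did, and 1 in Atf4-/-, when 6.53% did. In Atf4-/- the count was 1 without untreated replicate 2 (6.06% of all genes), 0 without treated replicate 1 (5.04%) and 0 without treated replicate 2 (5.38%). These counts in Atf4-/-, which cover only the arrays named as left out, are not above the background.

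**Figure D5:**
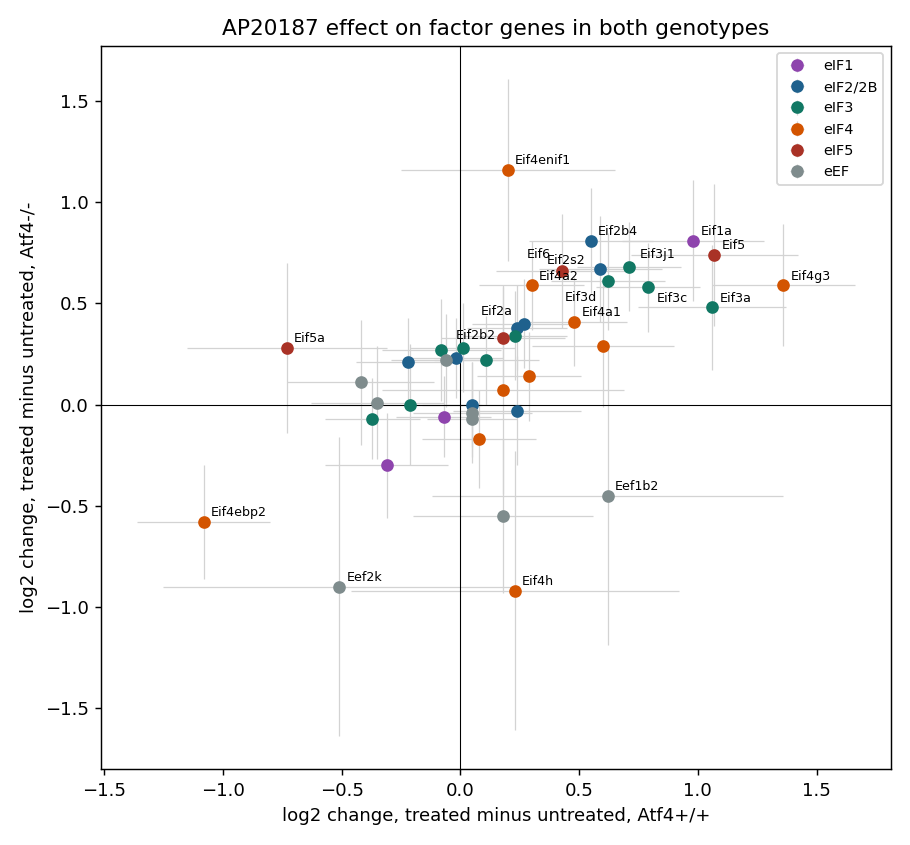
Log2 difference between treated and untreated arrays in Atf4+/+ (horizontal) and Atf4-/- (vertical) for the 43 factor genes, with standard errors from limma (2 against 2 arrays) and colours for complexes. The upper right holds 22 genes, with Eif4g3 farthest right at 1.36, and Eif4ebp2 lies at the lower left at -1.08 and -0.58.

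The difference between the 2 effects was tested directly, and limma called 0 probe sets (0%). At an unadjusted p under 0.05 there were 0 factor genes in either direction, against 2.65% of all genes with a higher and 2.56% with a lower effect in Atf4-/-. The smallest p among the factors was for Eif4g3, whose effect was 1.36 ± 0.30 in Atf4+/+ and 0.59 ± 0.30 in Atf4-/-. The difference of -0.77 ± 0.42 had a limma adjusted p of 0.944 and a 95% interval from -1.79 to 0.24, which includes no difference as well as an effect in Atf4-/- arrays well below that in Atf4+/+ arrays. For Eif3a the 2 effects were 1.06 and 0.48 (difference -0.58 ± 0.44), for Eif5a -0.73 and 0.28 (1.01 ± 0.59) and for Eif4enif1 0.20 and 1.16 (0.96 ± 0.63). Eif4ebp2 had effects of -1.08 and -0.58. At the other end, the effects of Eif3j1 (0.71 and 0.68), Eif3d (0.62 and 0.61) and Eif2s2 (0.59 and 0.67) differed by 0.08 or less in size, with standard errors between 0.30 and 0.37. At that precision neither a difference nor its absence was shown for any single gene.

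Between genotype labels, limma called 0 probe sets (0%) among the untreated and 0 (0%) among the treated arrays. At an unadjusted p under 0.05, 1 factor gene was lower in the arrays labelled untreated Atf4-/- (2.55% of all genes) and 0 were higher (2.39%), and 1 was lower in those labelled treated Atf4-/- (2.76%) and 0 higher (2.17%). The untreated one was Eif5a, at 1.44 and 1.74 in Atf4+/+ and 0.46 and 1.08 in Atf4-/- arrays (log2 difference -1.05 ± 0.42, limma adjusted p = 0.906). With untreated Atf4-/- replicate 1 grouped by its description the same difference was 0.02. The treated one was Eif3c, at 1.51 and 1.86 against 1.12 and 1.03 (-0.60 ± 0.22, limma adjusted p = 0.880). Among the elongation factors, Eef1a2 read 0.57 and 0.73 in treated Atf4+/+ and 1.11 and 0.98 in treated Atf4-/- arrays, a log2 difference of 0.62 ± 0.28 (limma adjusted p = 0.952). Eif4e2, a cap-binding protein that represses translation, read 0.82 and 1.02 in untreated Atf4+/+ and 1.31 and 0.98 in untreated Atf4-/- arrays. The counts above use 1 probe set for each gene. Of all 60 factor probe sets, 1 was higher in untreated Atf4-/- arrays at an unadjusted p under 0.05 (1.67%), against 2.76% of all probe sets. The lowest limma adjusted p among the 60 was 0.603. A probe set of Eif4b not used here read 0.54 and 0.36 in untreated Atf4+/+ and 1.34 and 1.38 in untreated Atf4-/- arrays. The median of the set was -0.14 untreated, beside -0.01 over all probe sets, and -0.04 treated, beside 0.04. Among the untreated arrays, 28 of the 35 initiation factor genes had a lower mean in those labelled Atf4-/-, against 4339 of all 8251 genes. The lowest median ratio of the set, 0.83, was that of untreated Atf4-/- replicate 2. Without the 2 arrays whose Atf4 went against the label the untreated median was -0.03.

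Of 41 listed other genes of the translation machinery, 36 were measured and none passed the test in any of the 6 comparisons. With AP20187, 5 of the 36 were higher in all treated arrays (13.9%) and 2 lower, beside 4.75% and 4.19% of all genes, and the median log2 difference was 0.14. Pabpc4, a poly(A)-binding protein that meets eIF4G on the mRNA, read 0.85, 0.67, 0.63 and 0.60 untreated and 1.62, 2.05, 1.16 and 1.39 treated, with a difference of 1.05 ± 0.17 (limma adjusted p = 0.147). Ppp1r15a, the GADD34 subunit that directs a phosphatase to eIF2, read 0.95, 0.92, 0.94 and 0.77 untreated and 1.59, 2.30, 1.26 and 1.05 treated (0.68 ± 0.18). Eif2ak2, the double-stranded RNA-activated eIF2 kinase PKR, read 1.26, 1.03, 1.38 and 1.23 untreated and 0.70, 0.80, 0.97 and 0.75 treated (-0.55 ± 0.16). Rps6kb2, an S6 kinase, overlapped, at 2.31, 2.26, 1.09 and 0.91 untreated and 1.27, 0.71, 0.75 and 0.70 treated (-0.79 ± 0.21). The poly(A)-binding gene Pabpc1, the release factor Etf1 and the recycling factor Abce1 were also higher, and the rescue factor Hbs1l lower, in all treated arrays; these 4 are named after their values were seen.

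Markers of other cells were read beside these values. Of 5 measured hepatocyte markers, 1 was higher and 1 lower in all treated arrays, and among the 31 measured markers of the other 6 cell types 0 were apart. Of all genes, 4.75% were higher and 4.19% lower. The mean log2 level of the hepatocyte markers ranged from 0.06 to 0.38 untreated and from -0.09 to 0.21 treated, that of macrophage markers from -0.33 to 0.55 and from 0.04 to 0.24, and that of endothelial markers from -0.17 to 0.60 and from -0.19 to 0.36. Ratios to a median do not show whether a marker is near 0, and the part of cell composition in the values of the factor genes was not tested.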

How the data were processed

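Total RNA of mouse liver was extracted with STAT60 and RNeasy and hybridised as biotinylated cRNA to Affymetrix arrays, per the labels' protocols. The authors deposited 1 linear ratio for each of 12488 probe sets and array, in steps of 0.01. For 10714 probe sets (85.8%) the median over the 8 arrays is at least 0.99, so the ratios read as relative to the probe set's own median. The sources used here do not say how signals were summarised and scaled.

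Groups came from the labels. After 66 control probe sets were left out, limma 3.58.1 (R 4.3.3) was fitted to log2(ratio + 0.1) with 4 group means and eBayes, over 12422 probe sets. It gave 6 comparisons: the AP20187 effect in each genotype label, their mean and difference, and the genotype labels within each treatment. Probe sets were named from GEO's platform annotation: 10833 have 1 gene, 396 several and 1193 none. A gene was represented by 1 probe set, preferring a median ratio of 0.99 or more, next a name without a suffix such as _s or _r, and last the lowest SD within groups; all genes of the background were treated alike. Values for each array are given for eIF2 and eIF2B subunits, Eif4e, Eif5, Eef1a1 and Eef2, for at most 3 genes a direction and comparison, those of lowest p, and for genes without overlap. The members, lists and tests were chosen with earlier results of these data known. Alternatives changed the pseudocount (0.01, 0.5), normalization, filter, prior, probe set rule and arrays used. The script was tested on simulated data. Tables were handled with Python 3.11.15 and pandas 2.3.3.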

Additional observations from a re-analysis of the deposited data

Results flagged for a closer look

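For Eif2d both treated Atf4+/+ arrays (0.88 and 0.91) lay below both untreated ones (0.96 and 1.16), and both treated Atf4-/- arrays (1.13 and 1.06) above both untreated ones (1.04 and 0.84). The log2 difference between the effects was 0.42 ± 0.31 (SE), with a limma adjusted p of 0.944 and a 95% interval from -0.32 to 1.16. The second Eif2d probe set gave a difference of -1.38 ± 0.54 (limma adjusted p = 0.906), in the other direction.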

How the results depend on the processing

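No factor gene passed the limma test under any of the 17 alternatives. Under the alternatives run for overlap (normalization, row median filter, probe set rule, arrays left out), 14 to 18 were higher in all treated arrays where 4.61% to 9.2% of all genes were, and 1 to 3 lower where 4.13% to 12.4% were, all of these chosen after seeing the data. No paired analysis was possible because the labels give no replicate numbers or litters. For the mean of both genotypes, 3 and 8 probe sets passed with pseudocounts of 0.01 and 0.5, 12 after quantile normalization, 10 with only row medians of at least 0.99 and 8 with the mean over a gene's probe sets. In Atf4+/+ 2 passed after quantile normalization and 8 with the row median filter. For the difference of the effects 2 passed with that filter and 2 with the mean over probe sets. A pseudocount of 0.5 gave factor medians of 0.13 in Atf4+/+ and 0.16 in Atf4-/-, quantile normalization gave 0.07 for the difference, and the mean over probe sets gave -0.09 between untreated genotypes. That mean reversed Eif3l (0.03 in Atf4+/+, 0.45 over both) and Eif2d (-0.48 for the difference, -0.26 between treated genotypes); the cause was not tested. With untreated Atf4-/- replicate 1 grouped by its description, the medians were 0.24 in Atf4+/+, 0.29 in Atf4-/- and 0.09 for the difference. That grouping reversed Eif5a (-0.05 for the difference, 0.02 untreated) and Eif4e2 (-0.07 untreated). Without both untreated arrays whose Atf4 went against the label, 0 probe sets passed in Atf4+/+ and 0 over both genotypes. Factor genes with an unadjusted p under 0.05 then numbered 4 in Atf4+/+, 1 in Atf4-/-, 6 over both and 0 between treated genotypes. Then 3 were lower in all treated arrays, when 12.4% of all genes were, and the medians were 0.15 in Atf4-/- and -0.03 between untreated genotypes. Leaving out each of the 8 arrays in turn gave 0 probe sets past the test in Atf4+/+ and 0 to 2 over both genotypes. The factor genes at an unadjusted p under 0.05 numbered 4 to 9 in Atf4+/+, 0 to 9 in Atf4-/-, 10 to 14 over both, 0 to 2 for the difference, 0 to 1 between untreated and 0 to 3 between treated genotypes. Their medians ranged from 0.10 to 0.21, from 0.15 to 0.29, from 0.11 to 0.22, from -0.04 to 0.11, from -0.19 to -0.04 and from -0.09 to 0.01, in the same order. Between untreated genotypes Eef1a2 ranged from -0.08, without untreated Atf4+/+ replicate 1, to 0.60, and between treated genotypes Eif4ebp2 from -0.02, without treated Atf4+/+ replicate 2, to 0.66. The deposited ratios carry no signal over background, so that dim probe sets could not be told from bright ones.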
